A study of Homo sapiens with 12 samples.

Results

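The small subunit processome is the particle that assembles around the nascent ribosomal RNA in the nucleolus and turns it into the precursor of the small ribosomal subunit. The genes of 42 of its proteins and nucleolar partners were examined here for open chromatin at their ends, out of 20037 protein-coding genes in a RefSeq table of GRCh38.p14. The members were chosen by name, as nucleolar partners of UTP3, a further protein of the particle whose gene was left out, and the rule uses no measured value. The choice was nevertheless made with earlier results of these data known. Open chromatin had been profiled by ATAC-seq, in which a transposase cuts and tags accessible DNA for sequencing. The material was KYSE150 and KYSE510, both established human oesophageal squamous carcinoma lines that were grown in the same medium. The 12 libraries fell into 4 groups of 3, namely control and HCP5-silenced KYSE150 and control and HCP5-silenced KYSE510, where HCP5 is a long non-coding RNA. The means of silencing, the nature of the control and whether the libraries came from separate cultures are not given in the sources used here, so p-values measure only the spread between these libraries. Peak lists do not measure RNA, and the loss of HCP5 itself could not be checked.

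Assembly of the particle begins while the ribosomal RNA is still being made. The UTP-A proteins bind first at its 5′ end, the UTP-B proteins and the U3 small nucleolar RNA with its box C/D proteins follow, and the MPP10 complex and a set of helicases and other enzymes complete and remodel it. Genes of ribosome production are known as a broad target set of MYC, the factor named in the series' title, which binds the E-box CACGTG together with MAX. The title links HCP5 to MYC through UTP3, and the comparison within each line asks whether accessibility at these genes differed between silenced and control cells.

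For every gene and library the tallest peak within 1 kb of either end of the gene was taken, among peaks with a height (the pileup that the authors deposited) of at least 3. Heights were not normalised between libraries, so each height was turned into its percentile among the genes with such a peak in the same library. Over the 12 libraries, 52869 to 123109 peaks reached this height and 50.5 to 64.8% of genes had one. Read numbers are unknown, so no counting interval could be given. The 2 lines differed in their lists, with 546453 to 629921 peaks of any height in KYSE150 and 115761 to 135841 in KYSE510, so the line cannot be told apart from how its libraries were sequenced or called. Of 12 squamous epithelial marker genes, 6 had a peak in all 12 libraries, beside 40.7% of all genes. Among these 6 were KRT5, DSG3, SFN, TRIM29 and PERP, whereas TP63 had no peak and KRT14 had one in 1 library. Only the ends of each gene were searched, so a peak at a start inside a gene, as at BYSL below, would be missed. The absence at TP63 thus does not show that the gene was closed. Of the other markers, 0 of 5 intestinal or glandular, 1 of 6 haematopoietic, 0 of 3 hepatocyte and 1 of 3 neuronal genes had a peak in all 12 libraries. The haematopoietic marker was SPI1 and the neuronal one was SYT1, while PTPRC had a peak in 1 library.

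The member promoters differ from most promoters in how often they carry an E-box. RefSeq windows of 250 bases before and 50 bases after the start were held for 35 members, with 36 windows in all because IMP4 had 2. The sequence CACGTG, which reads the same on both strands, stood in 16 of the 36 windows (44.4%), against 1851 of 22199 windows of protein-coding genes (8.34%). These 16 windows belong to 16 members and hold 18 such sites, which are shown because the E-box had the largest ratio of member to all-gene share among the 8 motifs searched. Each line gives 30 bases of GRCh38.p14 from 5′ to 3′ on the gene's strand, with the E-box in capitals and the position of its first base relative to the listed start of transcription.
AATF, chr17:36948785-36948814, + strand, 157 bases before the start: gacagaagcggtCACGTGccttggcgcgct
BYSL, chr6:41921515-41921544, + strand, position 29 after the start: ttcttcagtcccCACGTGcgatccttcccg
DHX37, chr12:124989082-124989111, - strand, position 42 after the start: ggagttggtggtctgggaaccCACGTGggc
FBL, chr19:39846356-39846385, - strand, position 7 after the start: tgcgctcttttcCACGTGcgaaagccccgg
IMP4, chr2:130342682-130342711, + strand, 203 bases before the start: gcggtcctaagtCACGTGtgacattctgta
IMP4, chr2:130342900-130342929, + strand, position 16 after the start: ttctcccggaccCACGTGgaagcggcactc
NAT10, chr11:34105602-34105631, + strand, 15 bases before the start: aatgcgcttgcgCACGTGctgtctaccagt
NOL6, chr9:33473894-33473923, - strand, position 14 after the start: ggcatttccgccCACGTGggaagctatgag
NOP14, chr4:2963374-2963403, - strand, position 16 after the start: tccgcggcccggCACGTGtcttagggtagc
PWP2, chr21:44107388-44107417, + strand, position 2 after the start: tgagctgcggcaCACGTGcgacggccgtga
RRP9, chr3:51941892-51941921, - strand, 5 bases before the start: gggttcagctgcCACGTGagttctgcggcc
UTP14A, chrX:129905914-129905943, + strand, 241 bases before the start: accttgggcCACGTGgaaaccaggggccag
UTP18, chr17:51260445-51260474, + strand, 89 bases before the start: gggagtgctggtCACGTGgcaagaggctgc
UTP18, chr17:51260538-51260567, + strand, position 5 after the start: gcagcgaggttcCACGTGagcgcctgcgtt
UTP20, chr12:101280083-101280112, + strand, 10 bases before the start: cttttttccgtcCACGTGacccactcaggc
UTP25, chr1:209827974-209828003, + strand, position 15 after the start: agtcagcgagccCACGTGcttgtgttgact
UTP4, chr16:69132621-69132650, + strand, 16 bases before the start: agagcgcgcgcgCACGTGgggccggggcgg
WDR43, chr2:28894658-28894687, + strand, position 4 after the start: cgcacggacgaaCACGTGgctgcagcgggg
Most of the sites lay close to the start: 14 of 18 (77.8%) began within 50 bases of it, compared with 765 of 2077 sites (36.8%) over all coding windows. Of these 18 sites, 8 began before and 10 after the start. The peaks mostly covered them. Over the libraries in which the gene had a peak, the tallest peak covered the E-box in 150 of 185 pairs of site and library (81.1%). Most sites lie near the start, and 86.7% of tallest member peaks lay over a listed start. Whether the coverage was particular to the E-box was not tested. IMP4, NAT10, NOL6, RRP9, UTP20 and WDR43 were covered in all 12 libraries, while NOP14 was covered in 2 of 12 and UTP4 in 6 of 12.

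Other nucleolar gene lists differed in this feature, as counts of windows show. The E-box stood in 12 of 37 windows of large subunit assembly factors (32.4%) and in 5 of 22 windows of other small subunit factors (22.7%). For the proteins of box H/ACA particles, which form pseudouridine, and their assembly factors it stood in 2 of 6 windows (33.3%). It stood in 1 of 25 windows of RNA polymerase I genes (4%) and in 1 of 13 of the RNA exosome (7.69%). Among genes with a peak in all 12 libraries the share was 9.71%, and among genes with no peak in any library it was 6.31%. Other motifs, searched on both strands, were less uneven. CCGGAAG, a core of ETS factor sites, stood in 36.1% of member windows and 12.8% of all coding windows. GGGCGG, the GC box, stood in 80.6 and 56.3%, CCAAT in 47.2 and 34.7%, TCGCGAG in 13.9 and 3.08%, and ATGGCGG in 13.9 and 6.99%. GCATGCG (2.78 and 4.63%) and TATAAA (5.56 and 9.47%) were rarer in the member windows. A match is a description of letters and shows no binding.

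**Figure D1:**
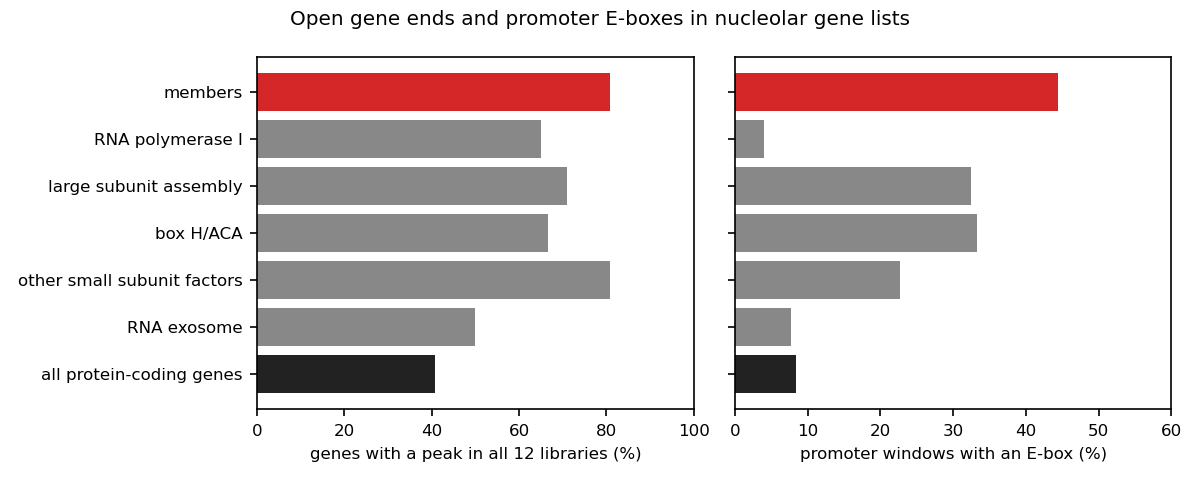
Share of genes with a peak of height 3 or more near a gene end in all 12 libraries (left, percent of genes) and share of RefSeq promoter windows with CACGTG (right, percent of windows), for the members, 5 other nucleolar lists and all protein-coding genes. The members stand at 81.0% and 44.4%, all coding genes at 40.7% and 8.34%, and the RNA polymerase I genes at 65% and 4%.

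Open chromatin at the gene ends was the rule among the members. A peak was present in all 12 libraries at 34 of 42 members (81.0%), compared with 8159 of 20037 genes (40.7%). The shares were 80.8% of 26 other small subunit factors, 71.1% of 38 large subunit factors, 66.7% of 6 H/ACA genes, 65% of 20 RNA polymerase I genes and 50% of 14 exosome genes. Of 442 tallest member peaks, 390 (88.2%) lay over an end of the gene, and 327 of the 377 whose gene had a listed start (86.7%) lay over that start. At 18 members the tallest peak also lay within reach of another gene, as at UTP23 with EIF3H, DCAF13 with SLC25A32, RRP9 with PARP3, IMP4 with VMA22 and UTP15 with ANKRA2. The peak cannot be assigned to one gene of such a pair. Nor was the tallest peak always at the same end of a gene. It lay over the listed start in 6 of 12 libraries at TBL3 and in 2 of 12 at NOP14. For TBL3 it lay beyond the far end, near GFER, in KYSE150 control replicates 1 and 2 and silenced replicate 1. Heights there were 11, 9 and 9, against 4, 3 and 5 in the other KYSE150 libraries. For NOP56 it lay near IDH3B in KYSE510 control replicates 1 and 2 and silenced replicate 2.

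The height of that peak was not unusual. The median member stood at a mean percentile of 54.3 in KYSE150, where the median of all genes with a peak in every library of the line was 57.8, and 14 of 34 members lay above the latter. In KYSE510 the values were 58.1 and 57.3, with 18 of 35 members above. The members spread widely, from 12.8 to 90.2 in KYSE150 and from 14.6 to 99.3 in KYSE510. Across the 34 members with a peak in all libraries the order in the 2 lines had a Spearman rho of 0.838, and across all 8159 such genes 0.767; genes are not independent replicates.

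RRP9, IMP4 and NCL were among the members with the tallest peaks in both lines. RRP9, the U3-specific protein of the box C/D particle, had heights of 46, 23 and 25 in control and 28, 30 and 16 in silenced KYSE150 libraries, and of 49, 34 and 30 and of 35, 37 and 39 in KYSE510. Its mean percentile was 90.2 ± 5.51 in KYSE150 and 92.2 ± 1.87 in KYSE510 (SD, n = 6 libraries each). IMP4, an RNA-binding partner of MPP10, stood at 85.9 ± 7.95 and 93.7 ± 2.54. Both were thus near the top of the members in every group. NCL encodes nucleolin, an abundant nucleolar protein that acts in ribosomal RNA transcription and early processing, and it stood at 84.0 ± 4.59 and 87.5 ± 2.99. The 250 bases before the listed starts of these 3 genes follow, from GRCh38.p14 on the gene's strand, with the motifs listed above and their reverse complements in capitals. In NCL a run of 11 capitals holds overlapping reverse complements of TCGCGAG and of the CCAAT box, and the E-box of RRP9 begins at the last 5 bases shown and ends beyond them.
RRP9, chr3:51941905-51942154, - strand: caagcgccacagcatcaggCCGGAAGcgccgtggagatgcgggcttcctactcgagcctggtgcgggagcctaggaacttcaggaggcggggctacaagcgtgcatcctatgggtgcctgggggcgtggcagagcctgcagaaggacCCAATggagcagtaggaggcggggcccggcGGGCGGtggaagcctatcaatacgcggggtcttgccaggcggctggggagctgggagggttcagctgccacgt
IMP4, chr2:130342647-130342896, + strand: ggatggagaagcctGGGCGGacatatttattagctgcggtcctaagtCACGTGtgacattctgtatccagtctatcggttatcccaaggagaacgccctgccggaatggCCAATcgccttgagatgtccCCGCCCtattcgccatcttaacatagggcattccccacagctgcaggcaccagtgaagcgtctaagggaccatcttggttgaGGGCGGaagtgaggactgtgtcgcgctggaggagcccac
NCL, chr2:231464485-231464734, - strand: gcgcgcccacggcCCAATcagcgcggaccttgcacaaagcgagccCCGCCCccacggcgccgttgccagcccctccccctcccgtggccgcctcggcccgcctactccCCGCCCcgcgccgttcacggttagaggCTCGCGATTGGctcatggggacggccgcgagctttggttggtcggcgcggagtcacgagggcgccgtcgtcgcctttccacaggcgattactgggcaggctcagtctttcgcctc

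UTP4 and DHX37 had the lowest mean percentiles over the 12 libraries, 15.5 and 25.9. UTP4, a WD-repeat protein of UTP-A, had heights of 3, 6 and 3 in control and 4, 4 and 5 in silenced KYSE150 libraries, and of 5, 8 and 4 and of 5, 4 and 4 in KYSE510. DHX37, the helicase that helps release U3 from the particle, had heights of 8, 5 and 3 and of 3, 3 and 3 in KYSE150, and of 14, 13 and 4 and of 13, 8 and 6 in KYSE510. Both stayed near the threshold height of 3 in at least 1 library of each line. The UTP4 window holds the E-box, the ETS core, the GC box, the CCAAT box and ATGGCGG, as shown in the 250 bases before each start, marked in the same way.
UTP4, chr16:69132399-69132648, + strand: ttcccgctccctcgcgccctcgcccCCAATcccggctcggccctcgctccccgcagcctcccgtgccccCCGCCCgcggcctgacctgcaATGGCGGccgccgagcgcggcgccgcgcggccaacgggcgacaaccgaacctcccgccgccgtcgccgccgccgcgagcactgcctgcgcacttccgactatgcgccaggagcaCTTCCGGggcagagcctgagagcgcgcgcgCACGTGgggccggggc
DHX37, chr12:124989132-124989381, - strand: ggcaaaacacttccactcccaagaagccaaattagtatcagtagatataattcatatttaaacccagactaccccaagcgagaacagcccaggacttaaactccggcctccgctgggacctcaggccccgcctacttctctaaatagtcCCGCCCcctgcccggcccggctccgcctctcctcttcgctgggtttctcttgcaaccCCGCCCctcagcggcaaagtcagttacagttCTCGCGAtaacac

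Members of one subcomplex were spread over much of the range. The 6 UTP-A members with a peak in all libraries ranged from a mean percentile of 14.5 (UTP4) to 72.5 (HEATR1) in KYSE150, with a median of 53.8. The 5 UTP-B members ranged from 31.0 (TBL3) to 89.6 (WDR3), with a median of 58.7. The TBL3 value mixes peaks at different ends of the gene, as given above. Among box C/D proteins, the core proteins NOP56 and NOP58 stood at 27.0 and 32.6 in KYSE150 and at 28.0 and 49.1 in KYSE510, far from RRP9. The MPP10 complex was as uneven, with IMP4 at 85.9, IMP3 at 53.6 and MPHOSPH10, its scaffold, at 40.9 in KYSE150. Of the enzymes, the RNA acetyltransferase NAT10 stood at 80.1 and the GTPase BMS1 at 43.1, while the methyltransferase EMG1 stood at 38.6. Single genes varied between libraries by a median SD of 11.3 percentile points in KYSE150 and 8.41 in KYSE510, and 0 of 33 neighbouring pairs in the KYSE150 order lay further apart than the larger SD of the pair. In KYSE510 this held for 2 of 34 pairs, UTP23 above NGDN and RRP9 above NAT10.

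**Figure D2:**
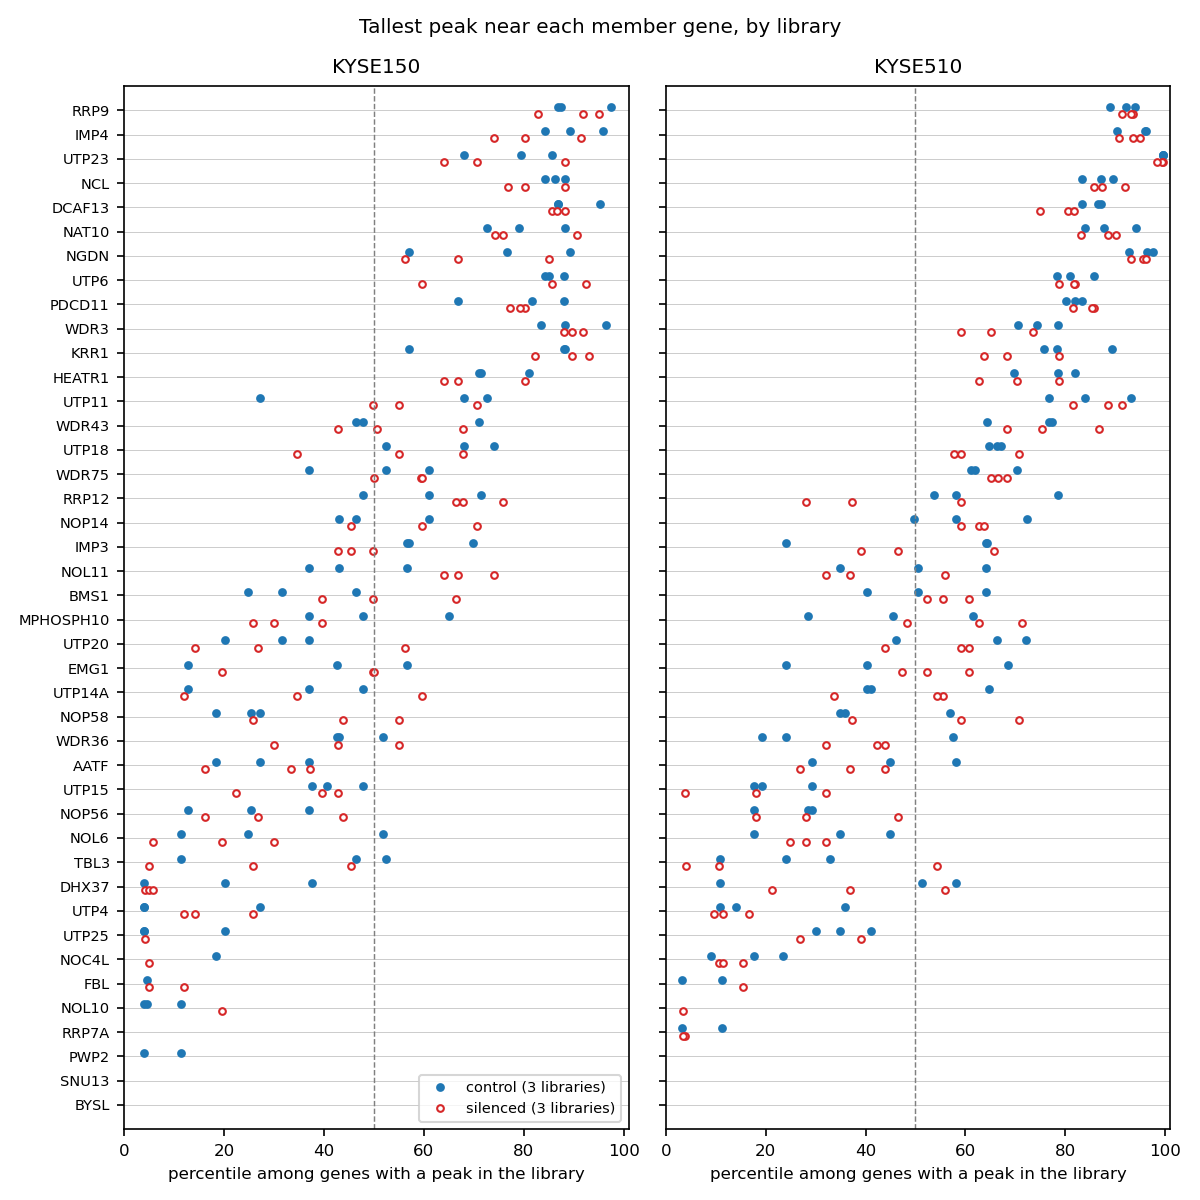
Percentile of the tallest peak of each member among genes with a peak in the same library (horizontal axis, 0 to 100), for KYSE150 (left) and KYSE510 (right). Filled points are control and open points silenced libraries, and a missing point is a library with no peak of height 3 or more. RRP9 and IMP4 stand at the top with UTP23, the 2 groups are interspersed for most members, and the 8 incomplete members are at the bottom.

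Members without a peak in every library were few and mostly had low peaks. UTP25 had one in 9 libraries, NOC4L in 8, FBL in 6, NOL10 in 5, RRP7A in 4 and PWP2 in 2. FBL, the fibrillarin gene, which encodes the methyltransferase of box C/D particles, never exceeded a height of 5. PWP2, a UTP-B protein, had heights of 4 and 3 in KYSE150 control replicates 1 and 3 only. With peaks of any height, FBL and RRP7A had one in all 6 KYSE150 libraries, and PWP2 had one in 5 KYSE150 and 0 KYSE510 libraries. The deposited lists start at a height of 1 in KYSE150 and 2 in KYSE510, so these counts cannot be compared between the lines. A peak of any height stood in all 6 libraries at 10823 genes in KYSE150 and 10591 in KYSE510. The largest height among UTP25, NOC4L, FBL, NOL10, RRP7A and PWP2 was 11, at UTP25. A promoter window was on record for 6 members without a peak in all 12 libraries. These were UTP25, NOC4L, FBL, RRP7A, PWP2 and BYSL, which is described below, while NOL10 had no window. Their windows had a median GC content of 67.5%, against 61.7% for the 29 complete members with a window. Over all genes with a window the medians ran the other way, at 64.7% for genes with a peak in all 12 libraries, 62.4% for those with one in some and 54.3% for those with none. Across those 29, GC content and mean percentile had a Spearman rho of -0.0757, and across 6851 genes -0.0405.

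BYSL and SNU13 had no peak of height 3 or more in the windows, but had one inside the gene. For BYSL, which encodes bystin, the listed start lies inside the annotated span chr6:41908759-41933046, and a peak near it had heights of 4, 8 and 5 in control and 12, 8 and 4 in silenced KYSE150 libraries, and of 19, 10 and 16 and of 12, 9 and 13 in KYSE510. All 12 libraries thus had a peak there. SNU13, the protein that starts box C/D assembly, had a peak 1372 to 1537 bp inside the end of its span chr22:41673933-41690480 in all 6 KYSE510 libraries, with heights of 3 to 7. In KYSE150 such a peak was present in control replicates 2 and 3, with heights of 4 and 6. The search inside the spans was added after the data were seen, and these values enter no test.

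No member was called changed by HCP5 silencing in either line. Each member's within-library rank was turned into a normal score, and silenced and control libraries were compared by limma's moderated test over all genes with a peak in all 6 libraries of the line, with Benjamini-Hochberg adjustment. In KYSE150 limma called 0 of 8571 genes (percent called 0), and the smallest adjusted p was 0.404 over all genes and 0.930 over the 34 members. At an unadjusted p under 0.05 there were 226 higher and 216 lower genes, of which 2 higher were members (NOL11 and NOP58). In KYSE510 limma called 0 of 10377 genes (percent called 0), with smallest adjusted p values of 0.520 and 0.840 among 35 members, and at an unadjusted p under 0.05 there were 324 higher and 298 lower genes, 0 of them members. The self-test recovered 100 and 99% of simulated shifts of 2 score units in the 2 lines and 5.5% of shifts of 1 unit in each, so a shift of 1 unit was mostly not detectable.

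The members as a list were split between both directions. In KYSE150 the score was higher after silencing at 16 members and lower at 18, with a median change of -0.02 score units, against -0.00078 over all genes tested; this median changed sign under some alternatives, to 0.023 without control replicate 3. In KYSE510 it was higher at 15 and lower at 20, with a median of -0.09, against -0.0017. Single changes ranged from -0.64 to 0.73 in KYSE150 and from -0.69 to 0.52 in KYSE510. The median standard error of a member's change was 0.31 in KYSE150 and 0.26 in KYSE510. Of the 12 E-box members tested, 7 were higher in KYSE150 and 4 in KYSE510, with medians of 0.02 and -0.09. Of the members with a window but no E-box, 7 of 17 and 9 of 18 were higher, with medians of -0.02 and 0.00. Their median mean percentiles were 44.2 with and 56.9 without an E-box in KYSE150, and 59.5 and 65.5 in KYSE510. The other nucleolar lists also had 0 genes called in both lines.

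In 3 cases the groups of a member did not overlap. NOL11, a UTP-A protein needed for ribosomal RNA transcription, had heights of 9, 11 and 8 in control and 14, 12 and 13 in silenced KYSE150 libraries. All silenced libraries lay above all control libraries there, with mean percentiles of 68.3 ± 5.20 and 45.5 ± 10.0 (SD, n = 3). The change was 0.73 ± 0.27 score units (SE; limma adjusted p = 0.930). In KYSE510 the heights of NOL11 were 19, 11 and 8 in control and 13, 8 and 8 in silenced libraries, which overlapped, and the change was -0.25. IMP3, the third protein of the MPP10 complex, had heights of 16, 11 and 12 in control and 9, 9 and 7 in silenced KYSE150 libraries. Its silenced libraries were all lower, with a change of -0.42 ± 0.25 (SE; limma adjusted p = 0.982), while in KYSE510 the change was 0.03. These were 1 member higher and 1 lower of 34 in KYSE150, where the groups of 4.07% of all genes did not overlap with the silenced libraries higher and of 6.11% with them lower.

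DCAF13, the homologue of yeast Sof1, was the member whose groups did not overlap in KYSE510. Its percentiles were 86.6, 83.4 and 87.2 in control and 74.9, 80.5 and 81.8 in silenced libraries. The heights themselves overlapped slightly, at 35, 24 and 28 against 20, 22 and 25. The change was -0.27 ± 0.20 (SE; limma adjusted p = 0.911), and in KYSE150 it was -0.17. This was 1 member lower and 0 higher of 35, beside 6.29% lower and 5.25% higher over all genes. No member's groups were apart in the same direction in both lines.

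The largest changes were scattered over roles and several of these members had opposite signs in the 2 lines. In KYSE150 the highest after NOL11 were the box C/D protein NOP58 (0.69), BMS1 (0.61), UTP4 (0.50) and KRR1 (0.44), and the lowest were DHX37 (-0.64), MPHOSPH10 (-0.52), IMP3, IMP4 (-0.38) and TBL3 (-0.36). In KYSE510 the lowest were RRP12 (-0.69), KRR1 (-0.39), UTP4 (-0.29), DCAF13 and WDR3 (-0.26), and the highest were MPHOSPH10 (0.52), NOP58 (0.41), EMG1 (0.32), WDR36 (0.29) and NOP56 (0.23). NOP58 was thus among the highest in both lines, with heights of 6, 6 and 5 in control and 11, 8 and 5 in silenced KYSE150 libraries, and of 16, 8 and 8 and of 14, 17 and 9 in KYSE510. Its groups overlapped in each line, and its limma adjusted p was 0.930 in KYSE150 and 0.915 in KYSE510. The changes listed for TBL3 and NOP56 compare peaks at different ends of the gene in part of the libraries.

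**Figure D3:**
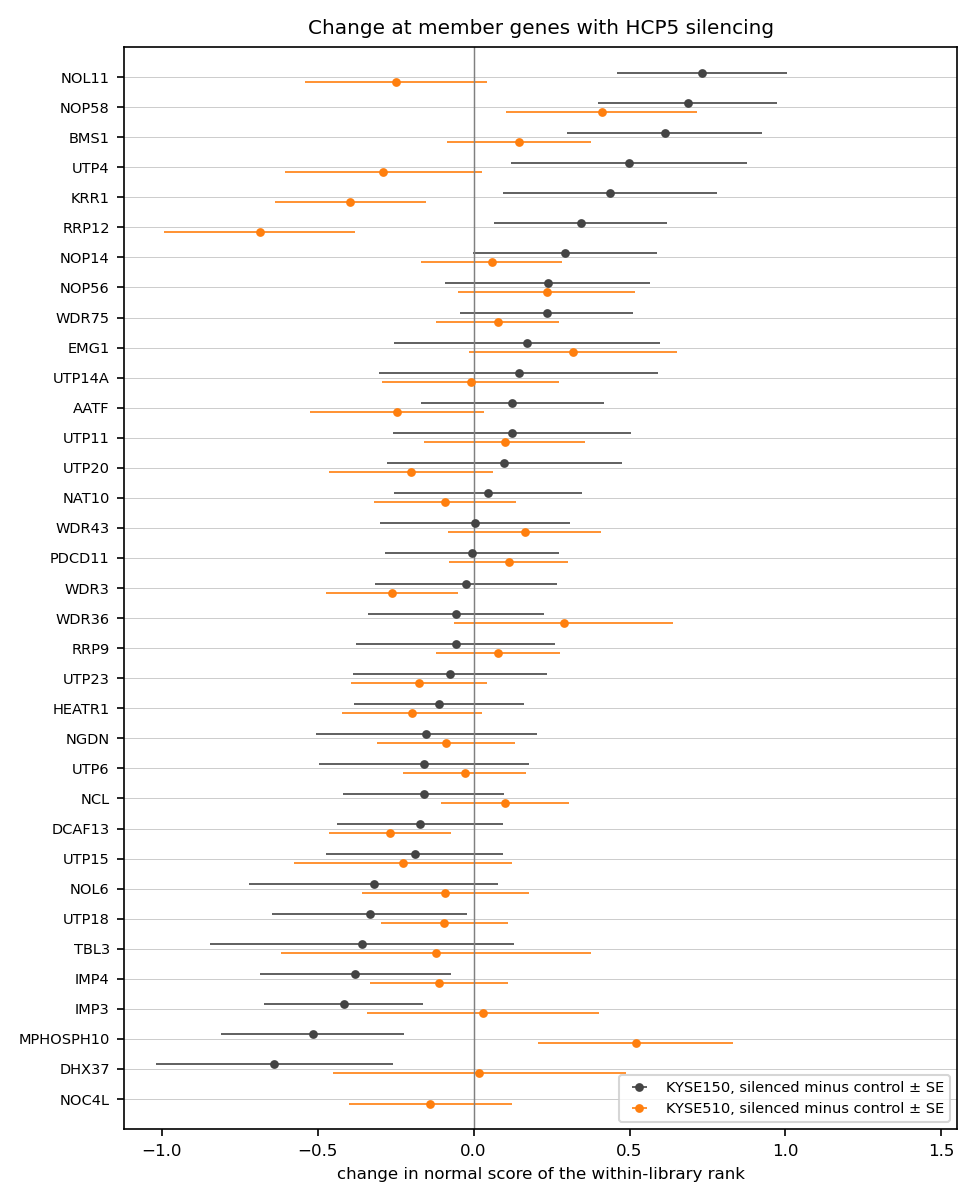
Change in normal score of the within-library rank, silenced minus control, for the members tested (points; bars are standard errors from limma, 3 libraries per group). KYSE150 runs from -0.64 at DHX37 to 0.73 at NOL11 and KYSE510 from -0.69 at RRP12 to 0.52 at MPHOSPH10, and no member passed the adjusted threshold of 0.05 in either line.

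The difference in the effect of silencing between the lines was tested with a treatment-by-line term over the 8159 genes with a peak in all 12 libraries. Limma called 0 genes (percent called 0), with 234 and 210 at an unadjusted p under 0.05 in the 2 directions, and the smallest adjusted p among the 34 members was 0.897. The members with the lowest terms (KYSE510 change minus KYSE150 change) were RRP12 (-1.09 ± 0.44 SE), NOL11 (-1.01), KRR1 (-0.87), UTP4 (-0.78) and BMS1 (-0.47). The highest were MPHOSPH10 (1.10 ± 0.46 SE), DHX37 (0.63), IMP3 (0.45), WDR36 (0.38) and NCL (0.27). RRP12, a HEAT-repeat factor, had heights of 10, 15 and 13 in control and 17, 13 and 11 in silenced KYSE150 libraries, and of 27, 13 and 12 and of 7, 13 and 9 in KYSE510. MPHOSPH10 ran the other way, with 10, 13 and 8 against 8, 6 and 5 in KYSE150 and 8, 14 and 10 against 11, 14 and 19 in KYSE510. Its tallest peak lay within reach of MCEE. That peak lay over an end of the gene in 11 of 12 libraries, and outside the gene's span in KYSE150 control replicate 1. At an unadjusted limma p of the term under 0.05 there were 2 lower members and 1 higher one. These were RRP12 (0.024), NOL11 (0.028) and MPHOSPH10 (0.031). None passed adjustment over the 8159 genes (limma adjusted p = 0.897 for each).

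The lines themselves differed at a few members. Between control libraries limma called 714 genes with a higher score in KYSE510 (8.75% of 8159) and 603 with a lower one (7.39%), 16.1% in all. Of the 34 members tested, 2 were called higher in KYSE510 (UTP23 and NGDN) and 1 lower (UTP15). Groups did not overlap at 6 members higher and 2 lower in KYSE510, beside 23.6 and 13.1% of all genes. Overlap was read from percentiles among all genes with a peak in a library. In control libraries these were 10700 to 10835 genes in KYSE150 and 12530 to 12977 in KYSE510. The scores rank only the 8159 shared genes, so these measures can differ in direction. PDCD11 had mean control percentiles of 78.9 in KYSE150 and 81.8 in KYSE510 but a score difference of -0.02. The median member differed by -0.02 score units, as did the median gene.

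UTP23, a factor that binds the U17 small nucleolar RNA, differed most. Its heights were 20, 22 and 15 in KYSE150 control and 109, 81 and 86 in KYSE510 control libraries. The silenced libraries repeated this, with 24, 12 and 12 against 94, 76 and 61. Every KYSE510 library thus stood well above every KYSE150 library, and the mean control percentile was 99.6 ± 0.0813 against 77.6 ± 8.94 (SD, n = 3). The difference was 1.91 ± 0.24 score units (SE; limma adjusted p = 0.00259), and between silenced libraries, a comparison added after the data were seen, it was 1.81 (limma adjusted p = 0.00356). UTP23 lies on chromosome 8 beside EIF3H, which shares the peak. The local background around UTP23 also differed between the lines. This background, implied by the heights and fold enrichments of low peaks within 500 kb of the gene, was 2.15 times the library median in KYSE510 (range 1.75 to 2.38 over 6 libraries) and 0.861 times in KYSE150 (at least 0.778). NOC4L had the next highest ratio in KYSE510, and the medians over members were 1.10 and 1.16 in KYSE150 and KYSE510. With fold enrichment, which sets a height against its local background, in place of height the UTP23 difference was 1.29 (limma adjusted p = 0.0492), the only member called on that scale. The part of the background in the difference was not tested. DCAF13, on the same chromosome, had ratios of 0.789 and 0.879.

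**Figure D4:**
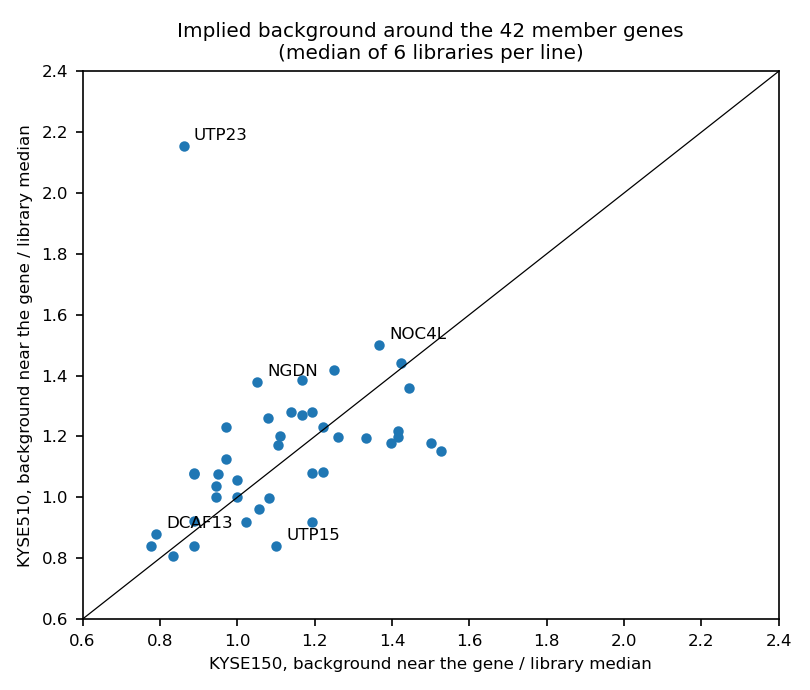
Implied background around each of the 42 members, as a multiple of the library median (median of 6 libraries per line), in KYSE150 (horizontal axis) and KYSE510 (vertical axis), with the line of equality. UTP23 stands apart at 0.861 and 2.15, while the highest KYSE150 ratio is 1.53, at PDCD11, and the medians over members are 1.10 and 1.16.

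NGDN, which encodes neuroguidin, a factor found in the particle, had heights of 27, 17 and 12 in KYSE150 control and 46, 52 and 46 in KYSE510 control libraries. The silenced libraries had 14, 20 and 9 against 45, 36 and 47, so the lines did not overlap in either treatment. The control difference was 1.06 ± 0.32 score units (SE; limma adjusted p = 0.0488), and the silenced one was 1.12 (limma adjusted p = 0.0247). Its call rested on a narrow margin: it was lost with fold enrichment (limma adjusted p = 0.151), with windows of 500 bp (0.0506), and without KYSE150 control replicate 2 or 3 (0.0927 and 0.132) or any 1 KYSE510 control replicate (0.0700 to 0.134). The background ratio around NGDN was 1.05 in KYSE150 and 1.38 in KYSE510, and its part in the difference was not tested. UTP15, a UTP-A protein, was lower in KYSE510, with heights of 8, 8 and 10 in KYSE150 control and 6, 5 and 7 in KYSE510 control libraries although the median gene with a peak had a height of 11 to 14 in KYSE510 and 8 to 10 in KYSE150 libraries. The difference was -1.01 ± 0.25 score units (SE; limma adjusted p = 0.0224). Without KYSE150 control replicate 3 or KYSE510 control replicate 1 or 2 its limma adjusted p was 0.0635, 0.0853 and 0.0739, and with fold enrichment it was 0.171. In silenced libraries the heights were 8, 5 and 7 against 3, 5 and 8, which overlapped, and the difference was -1.03 (limma adjusted p = 0.0800). The 250 bases before the starts of UTP15 and NGDN, chosen after their values were seen, are shown because their peaks covered this stretch in part or whole, with the motifs in capitals as before.
UTP15, chr5:73565493-73565742, + strand: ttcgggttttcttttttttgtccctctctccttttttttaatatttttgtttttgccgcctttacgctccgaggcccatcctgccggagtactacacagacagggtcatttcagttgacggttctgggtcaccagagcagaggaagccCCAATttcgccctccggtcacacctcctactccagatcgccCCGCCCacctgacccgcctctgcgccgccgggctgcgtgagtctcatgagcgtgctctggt
NGDN, chr14:23469453-23469702, + strand: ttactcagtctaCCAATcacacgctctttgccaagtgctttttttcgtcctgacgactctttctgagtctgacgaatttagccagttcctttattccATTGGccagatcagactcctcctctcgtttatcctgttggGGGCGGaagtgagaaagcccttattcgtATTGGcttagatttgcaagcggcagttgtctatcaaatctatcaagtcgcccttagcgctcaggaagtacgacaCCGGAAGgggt

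Further members stood near the threshold between the lines. UTP20, a large scaffold protein, differed by 0.91 (limma adjusted p = 0.0545), UTP11 by 0.97 (0.115) and WDR3, a UTP-B protein, by -0.85 (0.0626). The heights of WDR3 were 26, 37 and 22 in KYSE150 and 22, 21 and 19 in KYSE510 control libraries. At the lower end TBL3 (-0.73), WDR36 (-0.71) and IMP3 (-0.52) followed, and at the upper end DHX37 (0.56). The TBL3 difference again mixes peaks at different ends of the gene. Between silenced libraries limma called 1200 genes (14.7%, with 7.98% higher and 6.73% lower in KYSE510), among them 8 members. UTP23, NGDN, UTP11 (0.95, limma adjusted p = 0.0414) and DHX37 (1.19, 0.0300) were higher, and RRP12 (-1.11, 0.0293), WDR3 (-1.11, 0.0142), NOL11 (-1.04, 0.0299) and KRR1 (-0.90, 0.0462) were lower. UTP23 and NGDN were thus called in both treatments, and UTP15 passed the threshold between control libraries alone. As the treatment-by-line term called no gene, these lists are not shown to differ between treatments.

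**Figure D5:**
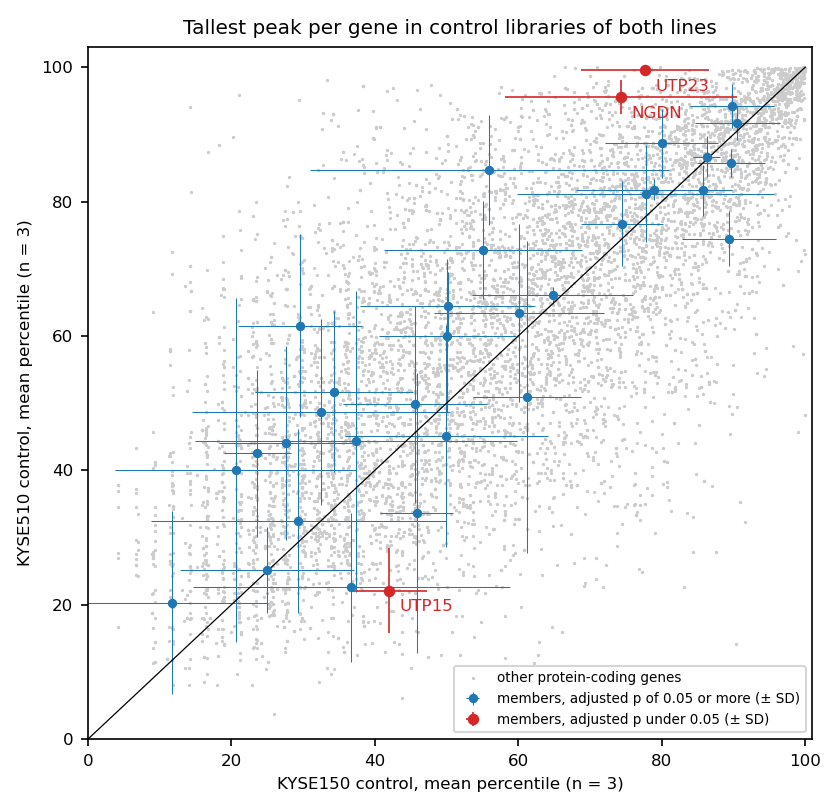
Mean percentile of the tallest peak in 3 control libraries of KYSE150 (horizontal axis) and KYSE510 (vertical axis) for genes with a peak in all 12 libraries (grey) and members (coloured; bars are SD), with the line of equality. UTP23 (77.6 and 99.6) and NGDN (74.3 and 95.6) lie above the line, and UTP15 (22.1 in KYSE510) lies below it. Percentiles are among all genes with a peak in the library, a longer list in KYSE510, so the line of equality does not mark equal scores.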

How the data were processed

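The authors deposited 1 peak table for each of the 12 ATAC-seq libraries. The submitters' processing notes name Trimmomatic 0.36, Bowtie2 2.2.6, Picard 2.8.2, MACS2 2.1.1 and bedtools 2.25.0 with GRCh38; settings and the handling of duplicates are not given in the sources used here. Per the file headers, the pileup of a peak is its height, a signal at 1 position. Per the file headers, fold enrichment is the ratio of that height to the local background. Per the file headers, each peak has a p-value and an FDR, and the largest deposited p-value was 0.00987. The deposited length of each peak is another value in bp and entered no test. Nothing in the tables shows a normalisation between libraries, and the depth is unknown.

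Peaks on 24 chromosomes with a height of at least 3 that overlapped by at least 1 bp the 1 kb on either side of either end of a gene's RefSeq span (GRCh38.p14) were kept. The tallest per gene was ranked within its library, with tied heights sharing a rank. For the scores, ranks were taken anew over the genes tested. Percentiles, and the overlap read from them, used all genes with a peak in the library. Normal scores of the ranks were compared within each line, between the lines' control libraries and with a treatment-by-line term over all 12, by limma 3.58.1 in R 4.3.3 (lmFit, eBayes), two-sided, with Benjamini-Hochberg adjusted p under 0.05 over all genes. Other steps used Python 3.11.15, pandas 2.3.3, numpy 2.4.6, scipy 1.17.1 and matplotlib 3.10.9. The implied background is (height + 1) / fold enrichment - 1, over peaks of height 3 to 5 within 500 kb of a gene. The fits were tested on simulated data without ties and with 200 changed genes of middle rank. For shifts of 1, 2 and 3 units, 5.5, 100 and 100% were recovered in KYSE150 (8571 genes) and 5.5, 99 and 100% in KYSE510 (10377 genes).

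Groups and replicate numbers came from the labels. The members, lists, motifs and named genes were chosen with earlier results of these data known. Named were the 5 members with the highest and lowest change in each comparison, those called, those apart in both lines, the 3 highest and lowest in each line and those without a peak in some library. Genes not covered by this rule illustrate a role and were chosen after their values were seen. Of 42 members, 35 matched a RefSeq promoter window, and those of DCAF13, UTP23, MPHOSPH10, NOL10, NOP58, SNU13 and RRP12 were not used here. Alternatives changed the minimum height, the measure, the scale, the window, the genes tested and the libraries, and added a replicate block. The squamous marker list is not reported here in full.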

Additional observations from a re-analysis of the deposited data

How the results depend on the processing

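Silencing called 0 genes in KYSE150 under every alternative run, and the treatment-by-line term likewise. In KYSE510 it called 2 genes when a gene needed a peak in at least 3 libraries, and 0 to 3 with 1 replicate left out (3 without silenced replicate 1). The members not overlapping were 2 in KYSE150 and 1 in KYSE510. With fold enrichment they were 4 of 34 and 2 of 35, beside 10.3 and 11.3% of all genes. With 1 replicate left out they were 3 to 6 and 3 to 8. Fewer libraries then need to be apart, and 18.9 to 22.1% of all genes were. With peaks over the start alone the KYSE510 number was 0, since DCAF13 has no listed start. Same-numbered libraries correlated in their deviations at 0.00221 to 0.0141 in KYSE150 and 0.0250 to 0.0357 in KYSE510, so the numbers were not taken as pairing. With the replicate block silencing again called 0 genes in both lines, and 7 of 34 members in KYSE150 and 7 of 35 in KYSE510 had the same sign in all 3 pairs, beside 25.5 and 26.9% of all genes. In KYSE510, but not in KYSE150, every library correlated best with its own number. For the line difference the block matched control libraries of the 2 lines by number alone, a pairing that was not checked. With this block the line difference was called at 1237 genes and 4 members. NGDN then had a limma adjusted p of 0.0534, UTP20 of 0.0352 and UTP11 of 0.0425. The KYSE150 median member change of -0.02 ranged from -0.087 (without control replicate 2) to 0.023 (without control replicate 3) with 1 replicate left out. It was also above 0 without silenced replicate 2 (0.021), with an FDR of at most 0.05 (0.0038), with starts alone (0.0012) and on the log2 scale (2.07e-05). The KYSE510 median member change of -0.09 was -0.0054 with fold enrichment and ranged from -0.071 to -0.0082 with 1 replicate left out. The 1317 genes of the line difference were 257 with fold enrichment and 672 to 979 with 1 replicate left out, with 1 and 1 to 3 members, and silenced libraries gave 1200 genes and 8 members. On the scale of log2(height + 1), WDR3 had a limma adjusted p of 0.0467. Without KYSE150 control replicate 3 TBL3 had one of 0.0394, without KYSE510 control replicate 2 UTP20 one of 0.0382, and without KYSE510 control replicate 3 WDR36 one of 0.0351. Among uncalled changes, some signs reversed. With windows of 500 bp the KYSE510 change of NOP56 was -0.054. With 1 replicate left out, TBL3 ranged from -0.85 to 0.12 in KYSE150 (above 0 without silenced replicate 2). In KYSE510 UTP4 ranged from -0.48 to 0.052 and EMG1 from -0.014 to 0.68 (reversed without control replicate 2), WDR36 from -0.0082 to 0.69 (reversed without control replicate 1) and NOP56 from -0.031 to 0.45 (reversed without silenced replicate 3). The IMP3 term between the lines ranged from -0.0077 to 0.69 (reversed without KYSE510 control replicate 2). The cause of these moves was not tested. The unknown depth, the low heights near the threshold and ties of whole-number heights limit how finely members can be ranked.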
